A study of Mus musculus with 2 samples.

Results

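The 10 genes described here belong to the MHC class II antigen presentation pathway and were followed through single-cell RNA libraries of mouse lung tumours. They are H2-Aa, H2-Ab1, H2-Eb1, H2-DMa, H2-DMb1, H2-DMb2, H2-Oa, Cd74, Ciita and Ctss. They were chosen by symbol, not by their values, and all 10 were among the 19070 genes listed for both libraries.

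Both libraries came from tumours grown under the skin of mice from Lewis lung carcinoma (LLC) cells, a transplantable mouse lung cancer line. The anti-PD-1 library came from mice that received an antibody to PD-1, which restrains T cells, and was collected 7 days after treatment. The control library came from tumours of mice given an IgG2a isotype antibody; the series text calls these cells untreated, and no day is given for them. The strain, the age and the number of mice behind each library are not given in the sources used here. Each group is 1 library, so differences were described and not tested. Effects of the treatment cannot be told apart from differences between animals, preparations or collection times.

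Class II molecules carry peptides from the endosome to the cell surface, where CD4 T cells read them. The α and β chains assemble with the invariant chain Cd74, which keeps the groove closed until cathepsins, Ctss among them, cut it down to a short fragment. The H2-DM protein then swaps that fragment for other peptides, H2-DO restrains H2-DM, and the transactivator Ciita switches the pathway's genes on. Dendritic cells, B cells and activated macrophages are the classical class II cells, and interferon gamma from lymphocytes induces Ciita in many others.

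Genes that depend on Ciita are switched on through promoter elements called the X and Y boxes, and interferon regulatory factors bind another, interferon-type element. The following stretches are shown because they set members with and without these letters side by side. RefSeq promoter sequences (GRCm38.p6, which is mm10) were found for 7 members, and H2-Ab1, Cd74 and Ciita had none in that table. Each line gives the 200 bases before the annotated start, 5′ to 3′ on the gene's strand, with matches to AACNGATG (the core of the X box), TGATTGG (the Y box) or GAAA, any 2 bases and GAAA (the interferon-type element) in capitals.
H2-Aa: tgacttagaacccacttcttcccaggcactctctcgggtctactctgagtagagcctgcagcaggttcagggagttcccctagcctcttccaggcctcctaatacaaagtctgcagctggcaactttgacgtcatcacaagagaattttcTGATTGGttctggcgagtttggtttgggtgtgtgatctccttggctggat
H2-Eb1: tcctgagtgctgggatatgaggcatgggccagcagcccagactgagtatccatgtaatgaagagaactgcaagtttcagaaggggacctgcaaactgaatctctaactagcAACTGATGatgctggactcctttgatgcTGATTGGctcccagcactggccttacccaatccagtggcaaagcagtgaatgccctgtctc
Ctss: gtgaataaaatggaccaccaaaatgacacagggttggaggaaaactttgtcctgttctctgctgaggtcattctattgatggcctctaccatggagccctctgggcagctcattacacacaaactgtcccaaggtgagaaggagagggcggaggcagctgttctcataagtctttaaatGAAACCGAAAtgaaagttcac

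The H2-Aa stretch lies at chr17:34287824-34288023 on the minus strand and ends at the first base before the gene. The H2-Eb1 stretch lies at chr17:34305667-34305866 on the plus strand, and the Ctss stretch at chr3:95526586-95526785 on the plus strand. None of the shown stretches touches an exon of its gene in GENCODE vM21. Upstream of H2-Eb1 the X-box core stood 89 to 82 bases before the start, followed by the Y box at 61 to 55 bases. H2-Aa held the Y box 50 to 44 bases before its start, with no match to AACNGATG.

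The other starts overlap annotated exons or hold no match and are not printed. H2-DMb1 had AACTGATG and H2-DMb2 had AACCGATG, each followed by TGATTGG, and H2-Oa had TGATTGG alone. Neither annotated start of H2-DMa had a match. Both strands were searched, no match overlapped another, and the order of X-box core before Y box was shared by H2-Eb1, H2-DMb1 and H2-DMb2. Over 32843 RefSeq promoters, 1.55% held AACNGATG in the same window, 6.57% held TGATTGG, 2.27% held the interferon-type element and 0.11% held both of the first pair. On mm10 the 7 H2 members lie within 224 kb of chromosome 17, from 34092340 to 34316674, while Ctss lies on chromosome 3, Ciita on chromosome 16 and Cd74 on chromosome 18.

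The anti-PD-1 library held 9423 cell barcodes with 115407230 unique molecular identifiers (UMIs, each standing for 1 captured probe pair), and the control library 8441 barcodes with 113268618 UMIs. After filters 9422 anti-PD-1 and 8395 control cells remained, with a median of 8744 UMIs in anti-PD-1 and 7473 UMIs in control per cell. The libraries shared 107 barcodes. Cells were put into classes by the UMIs of marker genes, none of them a member, and are called "-like" because a level of markers sets them. Levels are UMIs per 1000000 UMIs of the class (CPM), with 95% intervals that cover counting error only. The 4 globin genes summed to 70.0 CPM in anti-PD-1 and 752 CPM in control Lyve1/Folr2 macrophage-like cells, and were lower in anti-PD-1 in all 12 classes. The part of this library-wide difference in red blood cell RNA in the results was not tested.

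Over all kept cells, the RNA of the surface class II chains and the invariant chain stood lower under anti-PD-1. The summed UMIs of H2-Aa, H2-Ab1, H2-Eb1 and Cd74, called the summed class II level here, came to 1031 CPM in anti-PD-1 and 2076 CPM in control, a log2 ratio of -1.01. Ctss stood at 819 CPM in anti-PD-1 and 837 CPM in control, a log2 ratio of -0.03. Ciita had 1168 UMIs in the anti-PD-1 library and 2524 in the control library. The scarce members had few UMIs in either library. H2-DMb2 had 101 in anti-PD-1 and 142 in control, and H2-Oa had 67 in anti-PD-1 and 143 in control.

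The cells that carried class II RNA also differed between the libraries. Monocyte-like cells held 29.3% of all summed class II UMIs in anti-PD-1 and 14.0% in control. Dendritic-like cells held 15.8% in anti-PD-1 and 4.64% in control, from 1.22% of anti-PD-1 and 1.10% of control cells. Macrophage-gated cells of neither subset held 9.08% in anti-PD-1 and 18.6% in control. Cells left without a class held 23.7% in anti-PD-1 and 31.1% in control, so a sizeable part of the class II RNA is not assigned to any class.

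**Figure D1:**
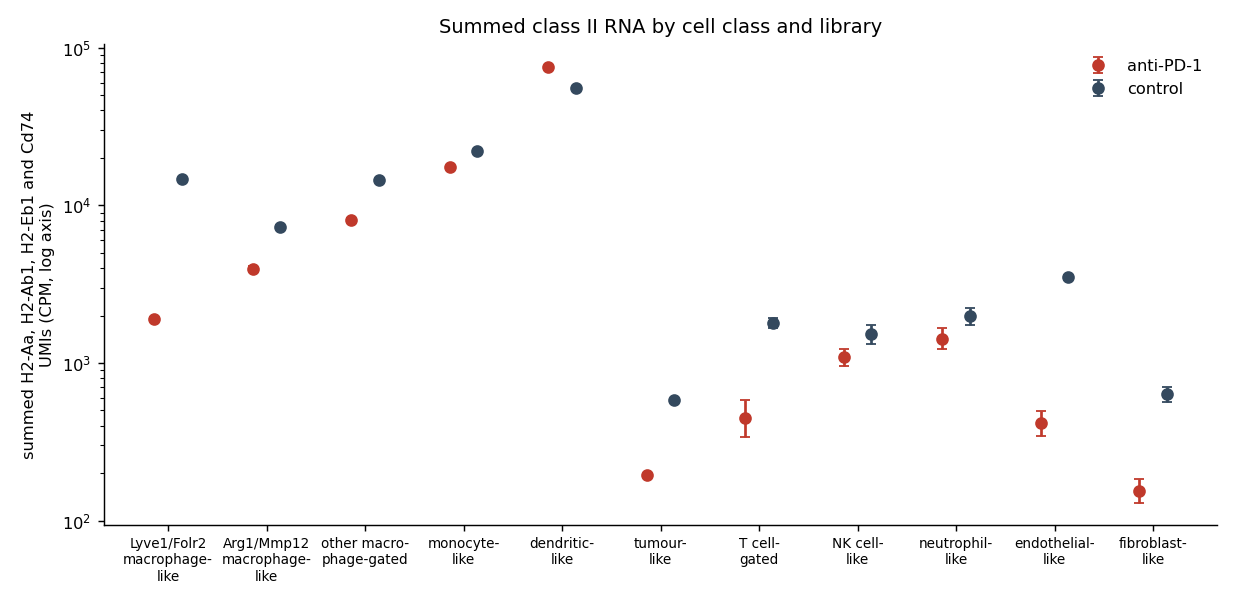
Summed UMIs of H2-Aa, H2-Ab1, H2-Eb1 and Cd74 per 1000000 UMIs (CPM, log axis) in 11 cell classes, anti-PD-1 in red and control in dark blue, with 95% Poisson intervals that cover counting error only (1 library each). Dendritic-like cells are the only class whose red point lies above the blue one, at 75587 against 55204 CPM, and Lyve1/Folr2 macrophage-like cells are far apart, at 1903 against 14683 CPM.

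The order of the classes by summed class II level differed between the libraries in the place of 1 macrophage subset. In the anti-PD-1 library the order was dendritic-like (75587 CPM), monocyte-like (17475 CPM), macrophage-gated cells of neither subset (8122 CPM), Arg1/Mmp12 macrophage-like (3964 CPM) and Lyve1/Folr2 macrophage-like cells (1903 CPM). In the control library it was dendritic-like (55204 CPM), monocyte-like (22251 CPM), Lyve1/Folr2 macrophage-like (14683 CPM), macrophage-gated cells of neither subset (14537 CPM) and Arg1/Mmp12 macrophage-like cells (7328 CPM). Only the control Lyve1/Folr2 class and the cells of neither subset were neighbours with overlapping intervals.

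Classes not known for class II RNA were set beside the myeloid ones for comparison, since free RNA gives some UMIs to any droplet. No profile of empty droplets was used, and a level in CPM from free RNA is lower in a cell with more RNA of its own. Neutrophil-like cells stood at 1426 CPM in anti-PD-1 and 1975 CPM in control, NK cell-like cells at 1091 CPM in anti-PD-1 and 1522 CPM in control, and T cell-gated cells at 449 CPM in anti-PD-1 and 1793 CPM in control. Tumour-like cells lay below all of these in both libraries, at 195 CPM in anti-PD-1 and 579 CPM in control. Median depth was 13477 UMIs in anti-PD-1 and 16889 UMIs in control tumour-like cells, but 1268 UMIs in anti-PD-1 and 1384 UMIs in control T cell-gated cells. T cell-gated cells and macrophage-gated cells of neither subset, both of low depth, had none of their gate markers among their 10 leading genes. Both are therefore named by the gate, although the leading genes of T cell-gated cells included the T cell receptor genes Trac, Trbv1 and Trbv5. The deeper tumour-like, endothelial-like and fibroblast-like cells had none of their gate markers there either.

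Lyve1/Folr2 macrophage-like cells, gated on Lyve1, Folr2, Cd163, Cbr2, F13a1 and Gas6, showed the widest gap in class II RNA among the myeloid classes. The class held 481 anti-PD-1 and 170 control cells, at a median of 4578 UMIs in anti-PD-1 and 4336 UMIs in control. Its summed class II level was 1903 CPM in anti-PD-1 and 14683 CPM in control, a log2 ratio of -2.95 (95% interval -2.99 to -2.90). In CPM the anti-PD-1 level lay little above that of neutrophil-like cells of the same library (1426 CPM). The control level was several times that of control neutrophil-like cells (1975 CPM). Neutrophil-like cells were shallower, at a median of 789.5 UMIs in anti-PD-1 and 720.5 UMIs in control. Their mean class II UMIs per cell were 1.47 in anti-PD-1 and 1.83 in control. In Lyve1/Folr2 macrophage-like cells the means were well above these, at 12.5 in anti-PD-1 and 88.0 in control.

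All the classical chains were lower together in this class. H2-Aa, the α chain of I-A, had 154 CPM in anti-PD-1 and 1348 CPM in control, a log2 ratio of -3.13. H2-Ab1, its β chain, had 289 CPM in anti-PD-1 and 2322 CPM in control (-3.01). H2-Eb1, the β chain of I-E, had 276 CPM in anti-PD-1 and 2178 CPM in control (-2.98). The intervals of these log2 ratios overlapped one another. Cd74, the invariant chain, had 1185 CPM in anti-PD-1 and 8834 CPM in control, a log2 ratio of -2.90 (-2.95 to -2.84).

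The peptide loaders were lower too, by less. H2-DMa, the α chain of H2-DM, had 85.1 CPM in anti-PD-1 and 265 CPM in control, a log2 ratio of -1.64 (-1.89 to -1.39), and its interval does not reach those of the classical chains. H2-DMb1, a β chain of H2-DM, had 66 UMIs in anti-PD-1 and 52 in control cells, or 20.9 CPM in anti-PD-1 and 51.0 CPM in control (-1.29, -1.83 to -0.73). Its paralog H2-DMb2 had 3 UMIs in anti-PD-1 and 0 in control cells. The coding parts of the pair are 95.9% identical over 786 bases, so how their UMIs split is uncertain. H2-Oa, the α chain of H2-DO, had 2 UMIs in anti-PD-1 and 1 in control cells.

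The regulator and the protease took different sides. Ciita had 26 UMIs in anti-PD-1 and 93 in control cells, or 8.23 CPM in anti-PD-1 and 91.2 CPM in control, a log2 ratio of -3.47 (-4.16 to -2.83). Ctss, which cuts Cd74, had 10585 CPM in anti-PD-1 and 10357 CPM in control, a log2 ratio of 0.03 (0.00 to 0.06). For each Cd74 UMI the class therefore held 8.93 Ctss UMIs in anti-PD-1 and 1.17 in control.

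Of the 8 members that had 100 UMIs or more in the libraries combined, 7 were more than 2-fold lower in anti-PD-1 and Ctss was not. Of all 7171 genes with that many UMIs, 0.892% were more than 2-fold lower and 0.572% higher. The median log2 ratio was -2.94 over the 8 members and -0.03 over all 7171 genes. Without cells that carried any tumour marker UMI the summed log2 ratio was -3.08.

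**Figure D2:**
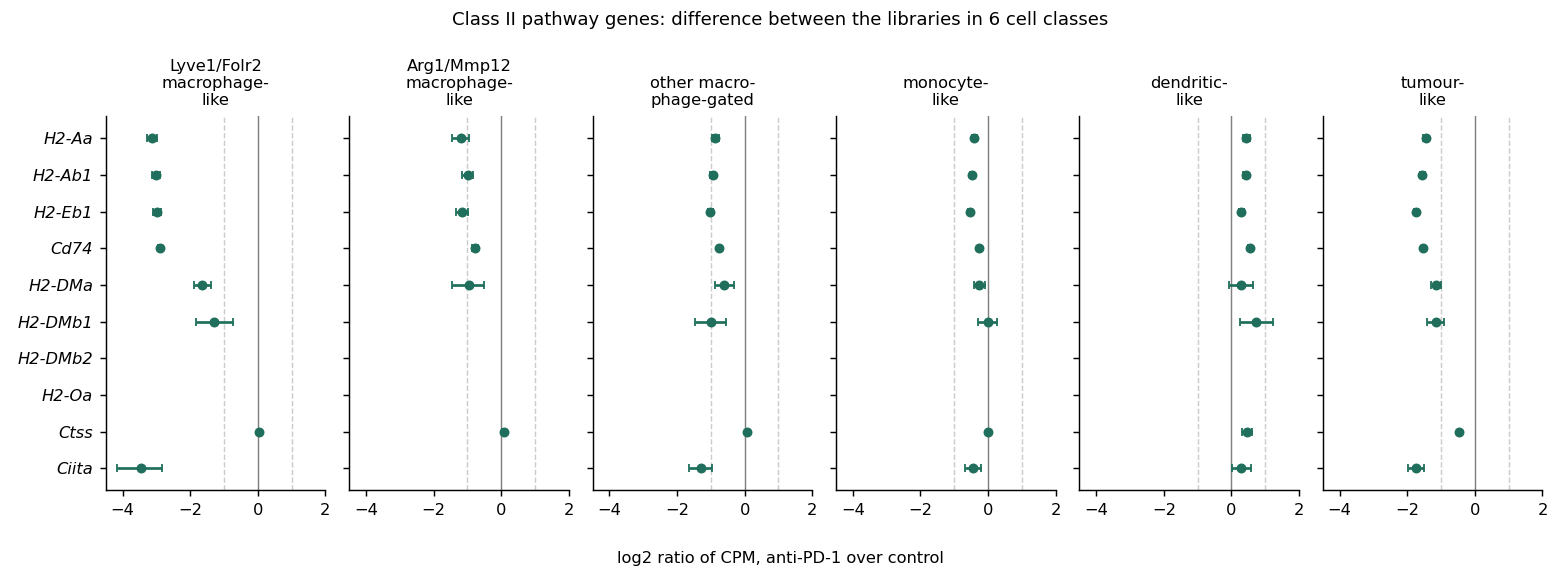
Log2 ratio of CPM, anti-PD-1 over control, of each member (rows) in 6 cell classes (panels); points are members with 100 UMIs or more in the libraries combined and bars are 95% intervals of counting error. Dashed lines mark 2-fold; 7 points lie left of the line at -1 in the Lyve1/Folr2 and tumour-like panels, and Ctss lies near 0 in all macrophage panels.

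The gap was present in the typical cell as well as in the sum. After each cell was thinned to 1000 UMIs, the median Lyve1/Folr2 macrophage-like cell held 0 summed class II UMIs in anti-PD-1 and 3.5 in control. Cells with none made up 60.7% (56.1 to 65.1%) of 473 anti-PD-1 and 14.0% (9.10 to 20.3%) of 164 control cells. Cells with 10 or more made up 4.02% of anti-PD-1 and 36.6% of control cells. Thinning left out the shallower neutrophil-like cells, 84 of 116 in anti-PD-1 and 116 of 156 in control. Of those kept, 19 of 32 anti-PD-1 cells (40.6 to 76.3%) and 6 of 40 control cells (5.71 to 29.8%) had none. In each library 1 of them had 10 or more. The share of Lyve1/Folr2 macrophage-like cells with none thus lay within these wide intervals of the deepest neutrophil-like cells. The share with 10 or more lay above that of neutrophil-like cells in control. Ctss was found in 97.5% of anti-PD-1 and 98.8% of control thinned Lyve1/Folr2 macrophage-like cells.

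**Figure D3:**
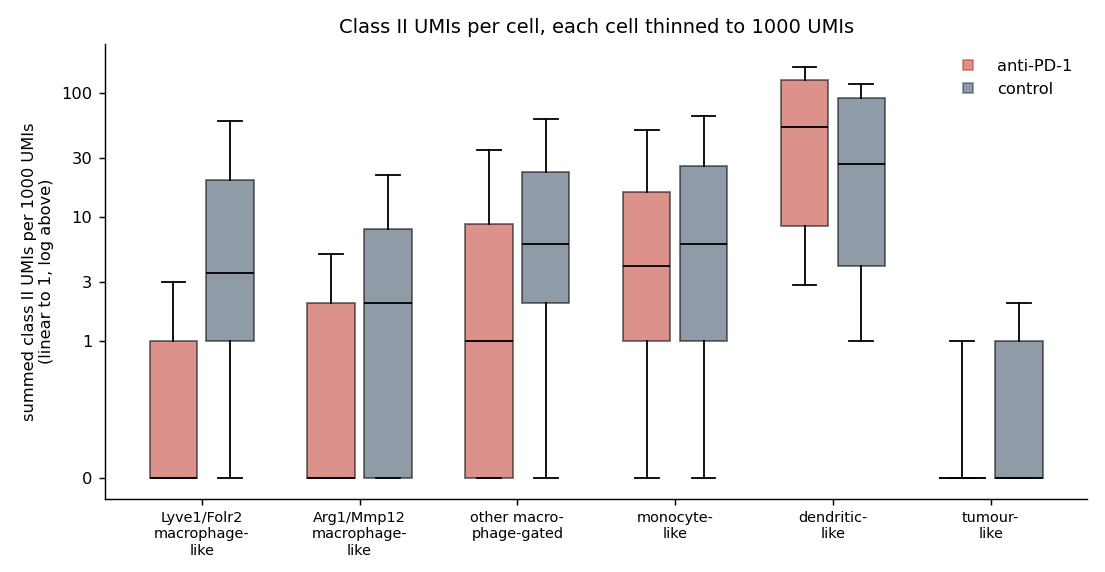
Summed class II UMIs per cell after thinning each cell to 1000 UMIs (linear up to 1 and log above), in 6 classes, anti-PD-1 in red and control in grey-blue; boxes span the 25th to 75th percentile of cells, lines are medians and whiskers the 10th and 90th percentiles. The median is 0 in anti-PD-1 and 3.5 in control Lyve1/Folr2 macrophage-like cells, and 53.0 in anti-PD-1 and 27.0 in control dendritic-like cells.

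The subset's own markers also differed between the libraries, at 6244 CPM in anti-PD-1 and 4259 CPM in control, so the cells were split by marker level, a split chosen after the data were seen. Between 1000 and 2000 CPM of markers, the summed class II level was 5224 CPM in 69 anti-PD-1 and 17346 CPM in 56 control cells, a log2 ratio of -1.73. Between 2000 and 4000 CPM it was 3913 CPM in 149 anti-PD-1 and 17223 CPM in 72 control cells (-2.14). Above 4000 CPM it was 640 CPM in 263 anti-PD-1 and 7092 CPM in 42 control cells (-3.47). The level was thus lower in anti-PD-1 at each marker level, and the cells with the most subset markers had the least class II RNA within both libraries. Ctss, near even over the whole class, was lower in anti-PD-1 below 4000 CPM of markers and higher above it. The 8 general macrophage markers summed to 26497 CPM in anti-PD-1 and 22325 CPM in control cells of the class, the dendritic markers to 148 CPM in anti-PD-1 and 174 CPM in control, and the tumour markers to 189 CPM in anti-PD-1 and 234 CPM in control; their part in the gap was not tested.

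**Figure D4:**
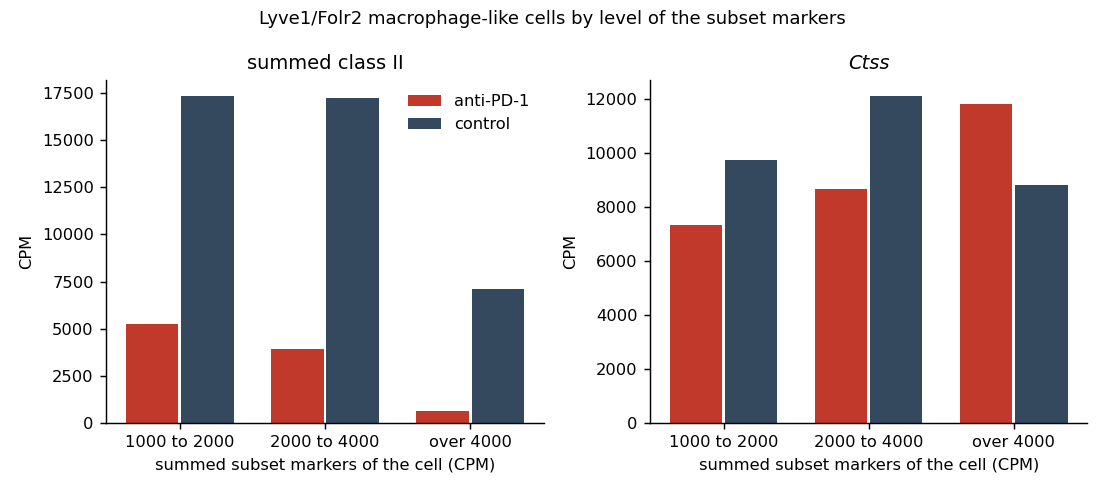
Summed class II level (left) and Ctss level (right), both in CPM, in Lyve1/Folr2 macrophage-like cells split by the summed CPM of the 6 subset markers, anti-PD-1 in red and control in dark blue (1 library each, 42 to 263 cells per bar). Class II bars are lower in anti-PD-1 in each split (640 against 7092 CPM above 4000 CPM of markers). Ctss bars are lower in anti-PD-1 from 1000 to 2000 CPM of markers (7339 against 9748 CPM) and from 2000 to 4000 CPM (8670 against 12108 CPM). Above 4000 CPM the Ctss bar is higher in anti-PD-1 (11801 against 8805 CPM).

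Class membership has soft edges. In Lyve1/Folr2 macrophage-like cells, 6 anti-PD-1 and 6 control cells lay within 20% above the marker threshold of 1000 CPM, and 120 anti-PD-1 and 172 control cells of any class lay as close below it. The class was led by Lyve1, Rgs7bp, Cd209f, Gas6 and Cd163, of which Lyve1, Gas6 and Cd163 are markers of its own gate. Its median cell had 0 CPM of the T cell, NK cell, B cell, endothelial and fibroblast lists in both libraries. For the monocyte list it had 127 CPM in anti-PD-1 and 176 CPM in control. Apart from the fibroblast list, the gate itself keeps out cells that pass these lists. Their low values are therefore partly set by the gate.

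Arg1/Mmp12 macrophage-like cells, gated on Arg1, Mmp12, Spp1, Trem2 and Hmox1, held less class II RNA in anti-PD-1 too. Of their 10 leading genes only Mmp12 is a gate marker. Cluster 0, which held most monocyte-like cells, also held 69.8% of the anti-PD-1 and 61.0% of the control cells of this class. The class had 182 anti-PD-1 and 277 control cells, and its summed level was 3964 CPM in anti-PD-1 and 7328 CPM in control, a log2 ratio of -0.89 (-0.95 to -0.82). H2-Aa had 246 CPM in anti-PD-1 and 563 CPM in control (-1.19), and H2-Eb1 439 CPM in anti-PD-1 and 979 CPM in control (-1.16). H2-Ab1 had 597 CPM in anti-PD-1 and 1188 CPM in control (-0.99), and Cd74 2682 CPM in anti-PD-1 and 4597 CPM in control (-0.78). Of 6 members with enough UMIs, 2 were more than 2-fold lower, against 2.4% of 4591 genes (0.457% were higher).

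The chains thus lay on both sides of the 2-fold line in this class. H2-DMa had 50 UMIs in anti-PD-1 and 194 in control cells (-0.97, -1.44 to -0.51), and Ciita had 18 UMIs in anti-PD-1 and 68 UMIs in control, too few for the count. Ctss had 8792 CPM in anti-PD-1 and 8351 CPM in control, a log2 ratio of 0.07. A few deep cells carried part of the anti-PD-1 level: without cells over 3 times the median UMI count the summed log2 ratio was -1.62. Without cells with a tumour marker UMI it was -1.46.

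Macrophage-gated cells of neither subset numbered 352 in anti-PD-1 and 646 in control. Their summed class II level was 8122 CPM in anti-PD-1 and 14537 CPM in control, a log2 ratio of -0.84 (-0.87 to -0.81). H2-Eb1 had 1288 CPM in anti-PD-1 and 2606 CPM in control (-1.02), H2-Ab1 1297 CPM in anti-PD-1 and 2496 CPM in control (-0.94) and H2-Aa 716 CPM in anti-PD-1 and 1306 CPM in control (-0.87). Ciita stood out among the members with 85 UMIs in anti-PD-1 and 469 in control cells, or 63.9 CPM in anti-PD-1 and 156 CPM in control, a log2 ratio of -1.29 (-1.64 to -0.95).

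These cells, too, were spread over clusters differently. Cluster 0, which also held most monocyte-like cells, had 60.2% of the anti-PD-1 and 30.2% of the control cells, and there the summed level was 14556 CPM in anti-PD-1 and 20656 CPM in control (-0.51). In the 4 clusters with at least 20 such cells of each library the log2 ratios ran from -1.87 to -0.51, all lower in anti-PD-1.

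Of 8 members with enough UMIs here, 3 were more than 2-fold lower, namely H2-Eb1, H2-DMb1 and Ciita, against 1.23% of 8156 genes (0.527% were higher). H2-DMb1 had 37.6 CPM in anti-PD-1 and 75.5 CPM in control (-1.01). H2-Eb1 and H2-DMb1 sat at the 2-fold line, and both moved inside it when high-UMI cells were left out (-0.74 and -0.40). Ctss had 4307 CPM in anti-PD-1 and 4079 CPM in control, a log2 ratio of 0.08.

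Monocyte-like cells were gated on Ccr2, Chil3, Plac8, Vcan and Hp and also needed 1000 CPM or more of macrophage markers. Monocytes without macrophage markers are thus not among them. Macrophage markers summed to 8045 CPM in anti-PD-1 and 6123 CPM in control cells of the class. Class II RNA was lower there in anti-PD-1 by under 2-fold. The 739 anti-PD-1 and 523 control cells had 17475 CPM in anti-PD-1 and 22251 CPM in control, a log2 ratio of -0.35 (-0.37 to -0.33). The 3 chain genes had log2 ratios from -0.53 (H2-Eb1, 2338 CPM in anti-PD-1 and 3372 CPM in control) to -0.41 (H2-Aa, 1418 CPM in anti-PD-1 and 1887 CPM in control). Cd74 had 10897 CPM in anti-PD-1 and 13075 CPM in control (-0.26), and Ciita 150 CPM in anti-PD-1 and 204 CPM in control (-0.44).

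No measured member passed 2-fold in monocyte-like cells (0 of 8, against 0.563% of 6391 genes lower and 0.438% higher). H2-DMa had 361 CPM in anti-PD-1 and 430 CPM in control (-0.25), and for H2-DMb1 (126 CPM in anti-PD-1 and 127 CPM in control) and Ctss (6722 CPM in anti-PD-1 and 6659 CPM in control) the interval of the log2 ratio spanned 0. After thinning, H2-Ab1 was found in 33.3% (29.8 to 36.9%) of anti-PD-1 and 50.7% (46.3 to 55.1%) of control monocyte-like cells, against 9.62% of anti-PD-1 and 22.0% of control NK cell-like cells. Median depths were 2258 UMIs in anti-PD-1 and 2331 UMIs in control monocyte-like and 1600 UMIs in anti-PD-1 and 1436.5 UMIs in control NK cell-like cells.

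Dendritic-like cells were the class with the most class II RNA and the one described class in which it was higher in anti-PD-1. The 115 anti-PD-1 and 92 control cells had a summed level of 75587 CPM in anti-PD-1 and 55204 CPM in control, a log2 ratio of 0.45 (0.42 to 0.49). H2-Aa had 7660 CPM in anti-PD-1 and 5667 CPM in control (0.43), H2-Ab1 15851 CPM in anti-PD-1 and 11866 CPM in control (0.42) and H2-Eb1 14474 CPM in anti-PD-1 and 11820 CPM in control (0.29). Cd74 had 37602 CPM in anti-PD-1 and 25851 CPM in control (0.54).

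The other members of the pathway in dendritic-like cells did not all separate the libraries. H2-DMa had 721 CPM in anti-PD-1 and 592 CPM in control, with an interval of the log2 ratio that spanned 0 (0.28, -0.06 to 0.63), and H2-DMb2 had 20 UMIs in anti-PD-1 and 15 in control cells. Ciita had 266 UMIs in anti-PD-1 and 174 in control cells (0.28, 0.00 to 0.57), and H2-DMb1 109 UMIs in anti-PD-1 and 52 UMIs in control (0.74, 0.25 to 1.24). Ctss had 3512 CPM in anti-PD-1 and 2550 CPM in control, a log2 ratio of 0.46. H2-Oa, which as part of H2-DO restrains peptide exchange, had 13 UMIs in anti-PD-1 and 27 in control cells, a log2 ratio of -1.38 (-2.46 to -0.38) on too few UMIs for the count. None of the 8 members with enough UMIs passed 2-fold, against 1.8% of 779 genes higher and 1.28% lower.

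The dendritic groups differed in how far apart the libraries were. Cells were split by markers of cDC1 (Xcr1, Clec9a, Wdfy4, Gcsam), of cDC2 (Cd209a, Mgl2, Clec10a) and of migratory cells, which have matured and head for lymph nodes (Ccr7, Fscn1, Ccl22, Cacnb3). In 22 anti-PD-1 and 21 control cDC1 cells the summed level was 82639 CPM in anti-PD-1 and 71398 CPM in control (0.21). In 32 anti-PD-1 and 17 control cDC2 cells it was 120997 CPM in anti-PD-1 and 115393 CPM in control (0.07). In 48 anti-PD-1 and 44 control migratory cells it was 40088 CPM in anti-PD-1 and 16372 CPM in control, a log2 ratio of 1.29 (1.203 to 1.382). The cDC1 and cDC2 sums rested on few cells too. The 5 cells with the most class II UMIs held 52.0% of those of cDC1 in anti-PD-1 and 73.8% in control. For cDC2 these shares were 29.8% in anti-PD-1 and 53.2% in control. The median cDC1 cell had 60810 CPM in anti-PD-1 and 26333 CPM in control, a wider gap than in the sum. The median cDC2 cell had 128559 CPM in anti-PD-1 and 110004 CPM in control.

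Of these 3 groups, migratory cells had the least class II RNA and the widest gap in the sum. There H2-Aa had 4272 CPM in anti-PD-1 and 1449 CPM in control (1.56), H2-Ab1 6630 CPM in anti-PD-1 and 2481 CPM in control (1.42), H2-Eb1 8035 CPM in anti-PD-1 and 3362 CPM in control (1.26) and Cd74 21151 CPM in anti-PD-1 and 9079 CPM in control (1.22). Ctss had 3254 CPM in anti-PD-1 and 1635 CPM in control (0.99). Ciita had 40 UMIs in anti-PD-1 and 20 UMIs in control (0.93, 0.12 to 1.79), too few for the count. Much of the sum was carried by few cells. The 5 migratory cells with the most class II UMIs held 71.3% of the group's in anti-PD-1 and 55.9% in control. The median migratory cell had 10 class II UMIs in anti-PD-1 and 12 in control, at a median depth of 1508 UMIs in anti-PD-1 and 1667.5 UMIs in control. Scaled to each cell's depth, the median was higher in anti-PD-1, at 7466 CPM in anti-PD-1 and 4897 CPM in control. H2-Eb1 was found in 56.3% (41.2 to 70.5%) of anti-PD-1 and 63.6% (47.8 to 77.6%) of control migratory cells, so the share of cells with a UMI was not higher in anti-PD-1.

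Dendritic-like cells with plasmacytoid markers, 9 in each library, had a lower summed level still, at 12520 CPM in anti-PD-1 and 5969 CPM in control, a log2 ratio of 1.07 (0.68 to 1.47). The 4 anti-PD-1 cells and 1 control cell that fell into none of these groups were too few to compare. In cDC2 cells H2-Oa had 6 UMIs in anti-PD-1 and 18 in control. The cDC2 markers summed to 3198 CPM in anti-PD-1 and 1138 CPM in control dendritic-like cells, so the mix of groups differed, and its part in the level of the whole class was not tested.

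**Figure D5:**
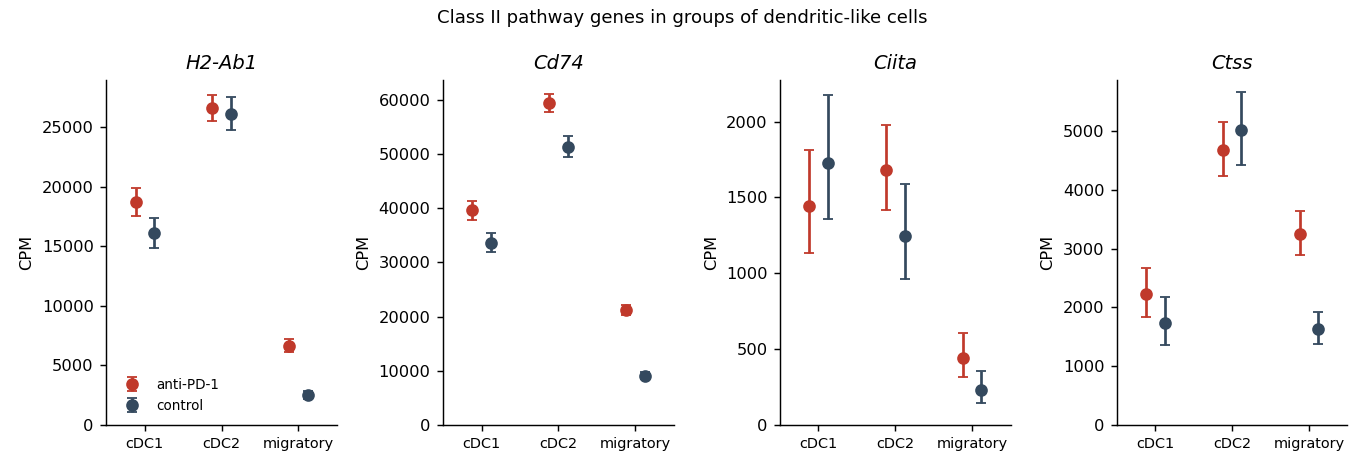
Levels in CPM of H2-Ab1, Cd74, Ciita and Ctss in dendritic-like cells split into cDC1, cDC2 and migratory groups, anti-PD-1 in red and control in dark blue, with 95% Poisson intervals (17 to 48 cells per point, 1 library each). In migratory cells the red points lie above the blue ones for H2-Ab1, Cd74 and Ctss (21151 against 9079 CPM for Cd74). The red Ciita point is also above there (443 against 232 CPM), although the Ciita CPM intervals overlap in each group.

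Tumour-like cells, gated on Hmga2, Igf2bp1, Igf2bp2, Igf2bp3 and Wnt7b, had a low class II level in both libraries. In 5098 anti-PD-1 and 3463 control cells the summed level was 195 CPM in anti-PD-1 and 579 CPM in control, a log2 ratio of -1.57 (-1.59 to -1.54). Of 8 members with enough UMIs, 7 were more than 2-fold lower, against 3% of 11769 genes (0.875% were higher). H2-Eb1 had 31.4 CPM in anti-PD-1 and 106 CPM in control (-1.75), Ciita 2.11 CPM in anti-PD-1 and 7.08 CPM in control (-1.74), and Ctss 159 CPM in anti-PD-1 and 221 CPM in control (-0.48).

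The class was made up of different clusters in each library. Cluster 3 held 38.6% of anti-PD-1 and 3.78% of control tumour-like cells, and cluster 2 held 11.3% of anti-PD-1 and 44.2% of control tumour-like cells. The summed class II level was lower in anti-PD-1 within each of the 9 clusters that held at least 20 tumour-like cells of each library, a split chosen after the data were seen, with log2 ratios from -2.61 to -0.42. In cluster 3 it was 143 CPM in anti-PD-1 and 351 CPM in control (-1.30), and in cluster 2 it was 126 CPM in anti-PD-1 and 348 CPM in control (-1.46).

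The summed levels of the whole class were below those of T cell-gated, NK cell-like and neutrophil-like cells in the same library when given in CPM, but not when given per cell. Tumour-like cells held a mean of 3.34 class II UMIs in anti-PD-1 and 13.1 in control, NK cell-like cells 2.18 in anti-PD-1 and 2.80 in control, and T cell-gated cells 0.621 in anti-PD-1 and 3.04 in control. How much of the tumour-like value is free RNA was not tested. The ratio of Ctss to Cd74 UMIs was 1.45 in anti-PD-1 and 0.69 in control tumour-like cells, close to the 1.38 of the whole anti-PD-1 library and the 0.71 of the whole control library. Cells without a macrophage marker UMI had 66.4 CPM of Cd74 in anti-PD-1 (367 cells) and 181 CPM in control (171 cells), while cells with 4 or more had 124 CPM in anti-PD-1 and 351 CPM in control. Thinned tumour-like cells had Cd74 in 8.52% of anti-PD-1 and 22.1% of control cells, against 14.1% of anti-PD-1 and 42.9% of control T cell-gated cells.

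Among T cell-gated cells 3 of 4 members with enough UMIs were more than 2-fold lower in anti-PD-1, against 3.97% of 1107 genes (2.17% were higher). Class II RNA thus stood lower in anti-PD-1 in a lymphocyte class as well. Cd74 had 281 CPM in anti-PD-1 and 1036 CPM in control T cell-gated cells, 640 CPM in anti-PD-1 and 965 CPM in control NK cell-like cells, and 959 CPM in anti-PD-1 and 1012 CPM in control neutrophil-like cells. The gap in these classes was narrower than the one in Lyve1/Folr2 macrophage-like cells, where Cd74 had 1185 CPM in anti-PD-1 and 8834 CPM in control.

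Endothelial-like cells, few in number, had class II RNA mainly in the control library. In 38 anti-PD-1 and 67 control cells the summed level was 415 CPM in anti-PD-1 and 3498 CPM in control, a log2 ratio of -3.08 (-3.35 to -2.81). H2-Ab1 had 60.3 CPM in anti-PD-1 and 665 CPM in control (-3.46), and Ciita 0 UMIs in anti-PD-1 and 50 UMIs in control, which is at least 5.13-fold lower against a floor of 3 UMIs. Ctss went the other way, with 887 CPM in anti-PD-1 and 557 CPM in control (0.67), so Ctss UMIs per Cd74 UMI came to 3.25 in anti-PD-1 and 0.27 in control. Of 5 members with enough UMIs, 4 were more than 2-fold lower, against 3.01% of 3055 genes (1.28% were higher).

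In CPM the control endothelial-like level was above that of control neutrophil-like cells (1975 CPM). The anti-PD-1 level was below that of the shallower anti-PD-1 neutrophil-like cells (1426 CPM). Per cell, the deeper endothelial-like cells were above in both libraries. They held a mean of 3.08 class II UMIs in anti-PD-1 and 47.8 in control, against 1.47 in anti-PD-1 and 1.83 in control neutrophil-like cells. In control endothelial-like cells 65.1% of thinned cells had Cd74, against 15.6% of anti-PD-1 cells. Of the few neutrophil-like cells deep enough for thinning, 60% had Cd74 in control and 31.25% in anti-PD-1. After thinning, the median control cell held 1 summed class II UMI in endothelial-like and 2 in neutrophil-like cells. The control means were 5.21 in endothelial-like and 2.4 in neutrophil-like cells. At equal depth the typical control endothelial-like cell was thus not above the neutrophil-like one, although the mean was. The macrophage markers summed to 716 CPM in anti-PD-1 and 661 CPM in control endothelial-like cells. Fibroblast-like cells had a summed level of 155 CPM in anti-PD-1 and 632 CPM in control, or a mean of 1.18 UMIs per cell in anti-PD-1 and 5.84 in control. Cluster 1, named tumour-like by its summed markers, held 77.6% of anti-PD-1 and 63.5% of control fibroblast-like cells. Within 20% above the threshold lay 42 of 116 anti-PD-1 and 16 of 63 control cells. Whether they are host fibroblasts or tumour cells was not tested. B cell-like cells numbered 2 in anti-PD-1 and 9 in control, too few to describe.

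Other genes of the pathway were described by lists. The 6 genes described from the interferon gamma route to Ciita (Ifngr1, Ifngr2, Jak1, Jak2, Irf1, Socs1) held genes more than 2-fold lower in each macrophage class and none higher. In Lyve1/Folr2 macrophage-like, in Arg1/Mmp12 macrophage-like cells and in cells of neither subset these were 2 of 6, Irf1 and Socs1 in each. In monocyte-like cells it was 1 of 6, in dendritic-like cells 0 of 4 with enough UMIs and in tumour-like cells 0 of 6. The shares of all genes more than 2-fold lower in these classes are those given above.

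Irf1, a transcription factor that interferon gamma induces and that acts on the Ciita promoter, stood lower in anti-PD-1 in all 6 described classes. It had 90.2 CPM in anti-PD-1 and 232 CPM in control Lyve1/Folr2 macrophage-like cells (-1.36), 77.4 CPM in anti-PD-1 and 257 CPM in control Arg1/Mmp12 macrophage-like cells (-1.73), and 138 CPM in anti-PD-1 and 313 CPM in control cells of neither subset (-1.18). In monocyte-like cells it had 292 CPM in anti-PD-1 and 515 CPM in control (-0.82), and in dendritic-like cells 318 CPM in anti-PD-1 and 541 CPM in control (-0.77). Irf1 was therefore lower in dendritic-like cells too, in which the class II genes were higher.

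Socs1, a feedback inhibitor of the same route, went along with Irf1. It had 37.3 CPM in anti-PD-1 and 77.5 CPM in control Lyve1/Folr2 macrophage-like cells (-1.05), and 124 CPM in anti-PD-1 and 265 CPM in control monocyte-like cells (-1.10).

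The proteases and helpers of the endosome had median log2 ratios above 0. The 9 genes were Ctsl, Ctsb, Ctsd, Ctsh, Ctsz, Lgmn, Ifi30, Cst3 and Sppl2a. Their median log2 ratio was 0.14 in Lyve1/Folr2 and 0.17 in Arg1/Mmp12 macrophage-like cells, 0.30 in cells of neither subset and 0.27 in monocyte-like cells. None passed 2-fold in either direction in any macrophage class, in monocyte-like or in tumour-like cells. Of all genes in these classes, 0.563% to 3% were more than 2-fold lower and 0.438% to 0.875% higher. A count of 0 among 9 genes is near those shares. In Lyve1/Folr2 macrophage-like cells Ctsb, a cysteine protease, had 16789 CPM in anti-PD-1 and 13330 CPM in control (0.33), and Ifi30, a thiol reductase that unfolds antigens, had 1017 CPM in anti-PD-1 and 1351 CPM in control (-0.41).

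The factors that bind class II promoters with Ciita (Rfx5, Rfxap, Rfxank, Nfya, Nfyb, Nfyc, Creb1) did not pass 2-fold either. They had 0 of 5 in Lyve1/Folr2 macrophage-like cells, against 0.892% of all genes lower and 0.572% higher. In tumour-like cells they had 0 of 7, against 3% lower and 0.875% higher. Both counts are near the shares of all genes. Rfx5, the X-box binding subunit of RFX, had 30.1 CPM in anti-PD-1 and 19.6 CPM in control Lyve1/Folr2 macrophage-like cells (0.62, -0.09 to 1.39). Among the surface turnover genes, Marchf1, a ligase that takes class II off the surface, had 84.2 CPM in anti-PD-1 and 113 CPM in control cells there (-0.42), and Cd83 80.4 CPM in anti-PD-1 and 140 CPM in control (-0.80). The costimulators Cd80, Cd86, Cd40 and Icosl had 0 of 4 past 2-fold in each macrophage class, again near the shares of all genes. Cd86 had 141 CPM in anti-PD-1 and 114 CPM in control Lyve1/Folr2 macrophage-like cells (0.31). Mif, a ligand of Cd74, was more than 2-fold lower in Arg1/Mmp12 macrophage-like cells, with 37 UMIs in anti-PD-1 and 149 in control (-1.02).

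The further class II genes were too scarce to count: H2-Ob and H2-Eb2 had under 100 UMIs in each described class, and H2-Ea is not among the genes measured. On the T cell side, Lag3, an inhibitory receptor that binds class II, had 22 UMIs in anti-PD-1 and 429 in control T cell-gated cells, or 167 CPM in anti-PD-1 and 1094 CPM in control, a log2 ratio of -2.71 (-3.40 to -2.09). Cd4 had too few UMIs there.

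The genes most like the summed class II level across 21 class-by-library sums were Tifab (Pearson r 0.92), Plbd1 (0.92), Spint1 (0.90), Fgd2 (0.89), Nuak2 (0.89), Rassf4 (0.88), Gm2a (0.88) and Cd83 (0.88). The points share libraries and depth, so these are descriptions. Within the members, Ciita reached 0.96, H2-DMb1 0.94 and H2-DMa 0.84, while Ctss reached 0.77 and H2-Oa 0.43. In Lyve1/Folr2 macrophage-like cells Plbd1 had 94.01 CPM in anti-PD-1 and 325 CPM in control (-1.79) and Fgd2 had 109 CPM in anti-PD-1 and 227 CPM in control (-1.06), whereas Rassf4 had 178 CPM in anti-PD-1 and 163 CPM in control (0.13).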

How the data were processed

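The deposited values are UMI counts per gene and cell barcode, made by the authors and without normalization, per the file headers. The protocol in the labels gives a Flex kit of 10x Genomics, in which paired probes stand for each gene, together with a 3' protocol. Cell Ranger 7.0.1 and mm10 stand in the submitters' processing notes, but the matrix headers name Cell Ranger 9.0.1. Counts of a probe depend on how well it binds, so levels were compared within a gene.

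A barcode needed 300 genes or more and no more than 20% mitochondrial UMIs. A cell joined a class when it held at least 3 UMIs of a marker list and the list's CPM passed a threshold. Cells that passed the tumour list and the list of another lineage stayed without a class. So did cells that passed 2 or more of the B cell, neutrophil, endothelial, dendritic and lymphocyte (T or NK, whichever was higher) lists. Macrophage markers kept a cell out of these classes only at 4000 CPM or more, and monocyte and fibroblast markers did not. Fibroblast markers did not keep cells out of the macrophage and monocyte classes either. Monocyte-like cells also needed at least 3 UMIs and 1000 CPM of macrophage markers. Macrophage-gated cells were split by the higher of 2 subset lists. The thresholds (600 CPM of tumour, 1000 of T cell, NK cell, endothelial and Lyve1/Folr2 markers, 1500 of B cell, dendritic and monocyte, 2000 of macrophage and fibroblast, 3000 of neutrophil and Arg1/Mmp12 markers) were set after their distributions were seen. Ly6c2 of the monocyte list is not among the genes measured. No doublet caller was used; cells with many UMIs or with markers of another lineage were left out as alternatives. The members, the gene lists and the named genes were chosen with earlier results of these data known. One gene of the interferon gamma list is not reported here and is left out of its counts. Named genes were the members, list genes past 2-fold or among the highest, and the 8 genes with the highest Pearson r (log2 of CPM + 1, at least 1000 UMIs, classes of at least 50 cells).

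Each class's UMIs were added up per library and scaled to CPM. With 1 library per group no test was made. A gene was counted as more than 2-fold lower or higher if it had at least 100 UMIs over both libraries. Intervals (95%) are exact Poisson for CPM, exact binomial for ratios and Clopper-Pearson for shares; they cover counting error only, and a count of 0 was set to 3 UMIs. Thinning drew 1000 UMIs per cell and left out shallower cells. Promoters are from RefSeq (GRCm38.p6). Python 3.11.15, numpy 2.4.6, scipy 1.17.1, pandas 2.3.3, scikit-learn 1.9.0 and igraph 0.11.9 were used, and the ratio and interval calculations were tested on simulated data. Cells were clustered (2000 variable genes, 40 components, 15 neighbours, Leiden resolution 1, 18 clusters) only for an alternative naming.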

Additional observations from a re-analysis of the deposited data

Results flagged for a closer look

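The summed class II level lay in opposite directions in classes of the same libraries. Its log2 ratio, anti-PD-1 over control, was -2.95 in Lyve1/Folr2 macrophage-like cells and 0.45 in dendritic-like cells. With 1 library per group the difference between these ratios was not tested. Both directions held under the alternatives of naming, depth and cell filtering that were run. None of these alternatives took up the mix of dendritic groups. Within the groups the log2 ratio was 0.21 in cDC1, 0.07 in cDC2 and 1.29 in migratory cells. In anti-PD-1 migratory cells 5 cells held 71.3% of the class II UMIs.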

How the results depend on the processing

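The summed class II log2 ratio kept its direction in all 52 alternative values of the 6 described classes, and all 18 that belonged to a class over 2-fold stayed over 2-fold. The values that moved beyond counting error follow. With cells named by cluster the ratio was -2.89 in Lyve1/Folr2 macrophage-like, -0.27 in monocyte-like, 0.26 in dendritic-like and -1.42 in tumour-like cells; no cluster was named Arg1/Mmp12 or other macrophage, so those have no value. After thinning it was -3.18 in Lyve1/Folr2 and -1.30 in Arg1/Mmp12 macrophage-like cells, -0.75 in cells of neither subset, -0.31 in monocyte-like and 0.59 in dendritic-like cells. With cells weighted equally it was -3.15, -1.33, -0.74, 0.56 (dendritic-like) and -1.60 (tumour-like). Without cells over 3 times the median UMIs it was -3.09, -1.62 and -0.54 in the macrophage classes. Without cells carrying markers of the other lineage it was -3.08, -1.46 and -0.70 in the macrophage classes, -0.24 in monocyte-like, 0.42 in dendritic-like and -1.34 in tumour-like cells. The stricter gate gave -0.88 in cells of neither subset, -0.40 in monocyte-like and 0.34 in dendritic-like cells. In dendritic-like cells at least 1000 genes per cell gave 0.40 and scaling to the median gene 0.41. The cause of these shifts was not tested.

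The count of genes over 2-fold in either direction depended more on the setting, since fewer genes pass a stricter minimum or thinning. It was 105, 131 and 143 in the macrophage classes, 64 in monocyte-like, 24 in dendritic-like and 456 in tumour-like cells. With at least 200 UMIs and 20 CPM it was 67, 65, 80, 36, 7 and 71 in the same order, and after thinning 39, 20, 67, 40, 7 and 113. Without cells carrying markers of the other lineage it was 25 in Arg1/Mmp12 macrophage-like cells, 72 in cells of neither subset, 9 in dendritic-like and 111 in tumour-like cells. Naming by cluster gave 226 in Lyve1/Folr2 macrophage-like cells and the stricter gate 15 in dendritic-like cells.

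Of 445 alternative values for single members, 426 kept their direction; of the 202 over 2-fold, 187 stayed over it. The 15 others were of H2-Eb1 and H2-DMb1 in cells of neither subset, and of H2-Ab1, H2-DMa and H2-DMb1 in tumour-like cells. No paired analysis was possible because each group has 1 library. H2-DMb2 and H2-Oa are limited by depth in each class. Classes rest on marker levels, and 23.7% of anti-PD-1 and 31.1% of control class II UMIs lie outside them. No correction for free RNA was made.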
